A study of Homo sapiens with 6 samples.

Results

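Polyamines (putrescine, spermidine and spermine) are small positively charged molecules that bind RNA and are needed in quantity by dividing cells. Their synthesis starts with ornithine decarboxylase, which is held in check by antizymes and released by antizyme inhibitors, and spermidine also donates the group that turns a lysine of the translation factor eIF5A into hypusine. The genes described here are the 10 that carry these steps: ODC1, SRM, SMS and AMD1 (synthesis), OAZ1, OAZ2 and AZIN1 (antizyme control), SAT1 (breakdown), and DHPS and DOHH (hypusine). They were picked by symbol from the deposited count table, where each symbol had 1 row, so that 10 of 31966 gene rows were taken, and all 10 had enough reads to be tested.

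RNA was sequenced from Kasumi-1 (a cell line from a human acute myeloid leukaemia), with 3 control libraries (a doxycycline-inducible hairpin RNA named shLUC) and 3 FBL knockdown libraries (a hairpin named shFBL, against the ribosomal RNA methyltransferase fibrillarin). Both groups received doxycycline at 100 ng/ml for 72 h, so the drug and the expression of a hairpin were common to both. The labels name no other hairpin against FBL and no rescue. Effects of the hairpin sequence and of the loss of FBL therefore cannot be told apart. The labels name 1 cell line and do not say whether replicates were separate cultures, and p-values therefore measure the spread between these samples only, which may be technical. In bulk RNA, fewer cells with a transcript and less of it per cell cannot be told apart.

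Total counts ran from 85556322 to 103148412 per library. FBL fell to 54.0, 32.4 and 44.9 CPM (counts divided by the scaled library total and multiplied by 1e6) from 580, 550 and 544 CPM in controls, so each library matched its label. Of 7 markers of the line, 6 were at 2.48 CPM or more in every library, and PTPRC was at most 1.12 CPM. A list of 6 markers of other cell types summed to at most 0.847 CPM in any library. Libraries of a group differed in how their deviations from the group mean went with the GC content of the transcript. The deviations rose with it in control replicate 2 and knockdown replicate 1 (r = 0.564 and 0.428, over 18439 genes that are not independent). In control replicate 1 (-0.480) and knockdown replicate 2 (-0.340) they fell with it. Deviations within a group sum to 0, so a rise in any library goes with a fall elsewhere, and the sign does not show which library deviates. For SRM, OAZ1 and DOHH, the members with the highest GC content, results are therefore also given without control replicate 2 and knockdown replicate 1 and after a correction for GC content. Over all genes tested, 32.8% differed between the groups by edgeR's quasi-likelihood test (adjusted p under 0.05). Under upper-quartile scaling the split was 2528 lower and 3597 higher, in place of 3141 and 2920.

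Several of these genes carry short sequence features through which polyamines or MYC are known to act on them, and these are shown first. The abundance of a messenger RNA says nothing of what the antizyme frameshift site or the AMD1 upstream frame does to its translation. Antizyme messages need a +1 frameshift, which polyamines promote, to be read in full. In GENCODE v29 the OAZ1 reading frame is annotated with 1 skipped base at chr19:2271443 and that of OAZ2 with 1 at chr15:64691515 (GRCh38). Read without the shift, the frame of OAZ1 stops after 68 codons and that of OAZ2 after 32, against 228 and 189 codons with it. The capitals mark the last codon before the shift and the stop codon.
OAZ1 frameshift site: cggtggtgcTCCTGAtgcccctcaccc
OAZ2 frameshift site: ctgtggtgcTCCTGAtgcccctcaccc
In AMD1 a short upstream reading frame of 6 codons before its stop starts at base 27 of the transcript, ahead of the main start at base 337, and the capitals mark its start and stop codons.
AMD1 upstream frame: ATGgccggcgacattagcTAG
In EIF5A, the only known carrier of hypusine together with its close relative EIF5A2, the modified lysine is codon 50, and the capitals mark it.
EIF5A hypusine codon: tcgaagactggcAAGcacggccacgcc

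The E-box CACGTG, which is the same on both strands, is the motif bound by MYC and MAX and also by other factors. Promoter windows of 300 bases (250 before and 50 after the annotated start, RefSeq, GRCh38.p14) were matched for 9 of the 10 members, and 3 of these, SRM, ODC1 and DOHH, held the motif. Of all 27305 genes with a window 8.77% did. By window the motif was in 3 of the members' 12, against 7.26% of all 35116. ODC1 has 2 annotated windows, of which 1 held 2 motifs. The capitals mark the motif, on the strand of the gene.
SRM, chr1:11060203-11060226, minus strand, motif from -199: gccgggcccCACGTGgcccctgga
ODC1, chr2:10448027-10448050, minus strand, motif from -29: ggccccgggCACGTGtgcggcgcg
ODC1, chr2:10447993-10448016, minus strand, motif from 5: ctgcggagaCACGTGgtcgccgag
DOHH, chr19:3500669-3500692, minus strand, motif from -9: cggcacggtCACGTGggcgagaaa
Positions count from the start base as 0. Of the 3 genes with the motif SRM and DOHH were lower in the knockdown and ODC1 was not called. OAZ2 and SAT1 were called with no match in a window, and AZIN1 was called with no window searched.

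In the FBL knockdown libraries, 4 of the 10 genes were called lower (SRM, DOHH, AZIN1 and OAZ2), 1 was called higher (SAT1) and 5 were not called. Over all tested genes 17.0% were lower and 15.8% higher, so 1 of 10 higher is no more than the background. Without FBL knockdown replicate 3 the lower count was 2, in a fit that called 1835 of 18755 tested genes lower. The largest changes were a 1.95-fold lower level of the spermidine synthase SRM, a 1.77-fold lower level of the deoxyhypusine hydroxylase DOHH and a 1.92-fold higher level of the acetyltransferase SAT1. Over the 10 members the median log2 fold change was -0.19, against -0.0061 over all tested genes, and 8 of 10 values were below 0. The groups did not overlap for 6 of the 10, against 45.2% of all tested genes. In the plot of CPM by library the control and knockdown points of SRM, AZIN1, OAZ2, SAT1, DOHH and SMS are separate, while those of ODC1, AMD1, OAZ1 and DHPS intermingle.

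**Figure D1:**
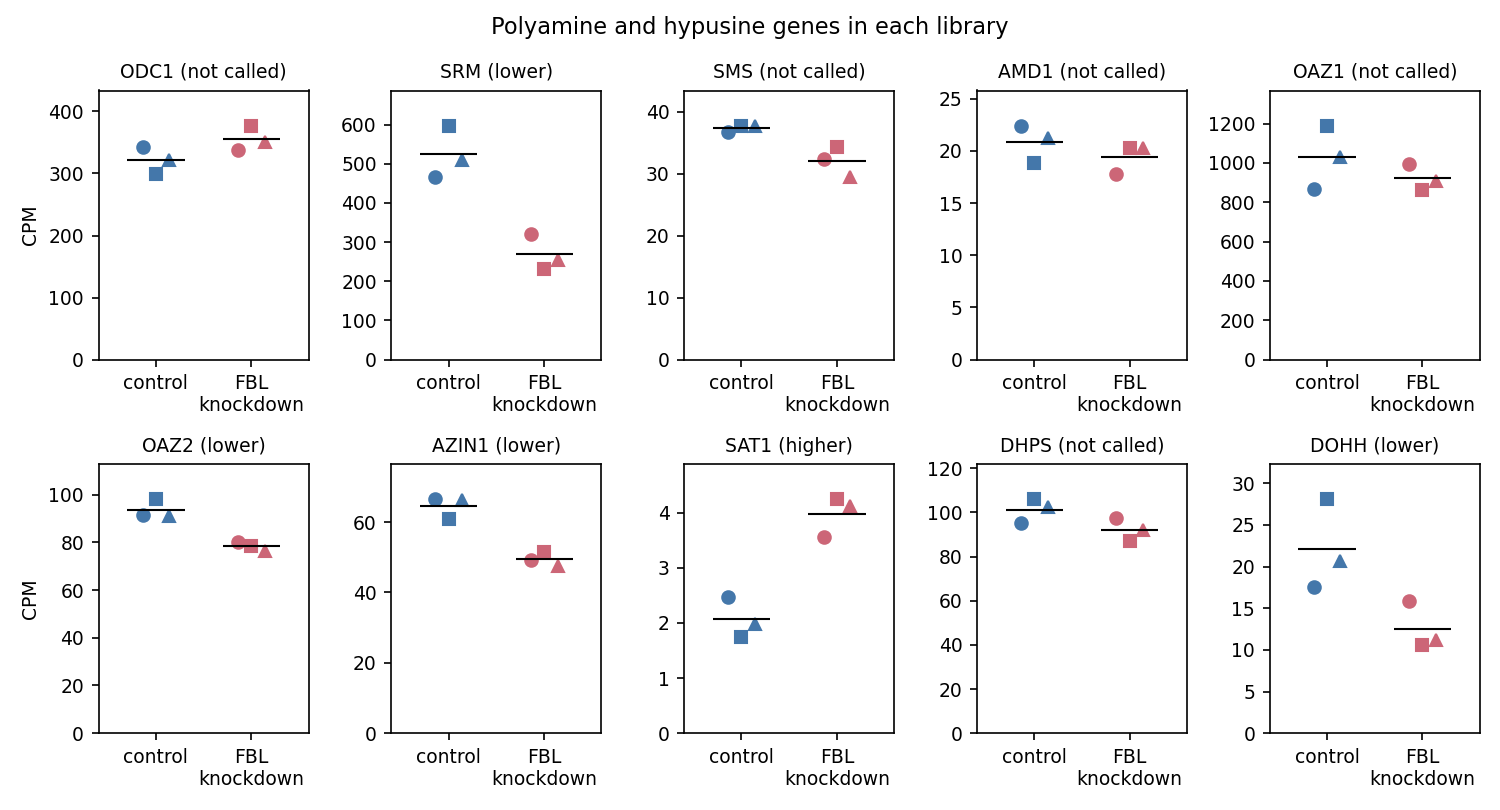
CPM of each of the 10 genes (y axis, starting at 0) in control (blue) and FBL knockdown (red) libraries. Circles, squares and triangles are replicates 1, 2 and 3, lines are group means, and the title gives the call by edgeR's test. SRM drops from 466 to 598 CPM to 231 to 321 CPM, and SAT1 is higher in each knockdown library.

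Synthesis was examined first. SRM (ENSG00000116649, chr1:11054584-11060024, minus strand) encodes spermidine synthase, which adds an aminopropyl group to putrescine. It stood at 466, 598 and 511 CPM in controls and at 321, 231 and 255 CPM in knockdown libraries. Each knockdown library lay below each control. Averages of 525 ± 66.9 and 269 ± 46.3 CPM (SD, n = 3 each) gave a log2 fold change of -0.96 ± 0.13 (SE; edgeR quasi-likelihood test, adjusted p = 0.000363). At 63.7% GC, SRM is among the GC-rich members, and its highest libraries in their groups were control replicate 2 and knockdown replicate 1. Without both of them the log2 fold change was -0.997, and after the GC correction -1.005 (edgeR adjusted p = 5.48e-06 and 6.80e-07). Both settings were chosen after the data were seen, and calls over all genes rose from 6061 to 7424 and 8470 in them. The smaller p-values are therefore no added support. The call held in all 20 alternative settings.

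ODC1 (ENSG00000115758, chr2:10439968-10448504, minus strand) encodes ornithine decarboxylase, which makes putrescine from ornithine. It was at 342, 300 and 321 CPM in controls and at 337, 377 and 351 CPM in the knockdown. The groups overlapped, and the log2 fold change of 0.15 ± 0.08 (SE) was not called (edgeR adjusted p = 0.215, 95% interval -0.041 to 0.33). ODC1 was called higher in 1 of 20 settings, after the GC correction (0.19, edgeR adjusted p = 0.0248). The nucleolar RNA gene SNORA80B lies within ODC1 on the same strand but had at most 35 reads in a library.

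SMS (ENSG00000102172, chrX:21940573-21994835, plus strand) encodes spermine synthase, which repeats the aminopropyl transfer on spermidine. It was at 36.7, 37.6 and 37.8 CPM in controls and 32.3, 34.4 and 29.5 CPM in the knockdown. These groups did not overlap, yet the log2 fold change of -0.22 ± 0.09 (SE) missed the threshold (edgeR adjusted p = 0.0709, 95% interval without adjustment -0.41 to -0.032). AMD1 (ENSG00000123505, chr6:110874770-110895713, plus strand) encodes the decarboxylase of S-adenosylmethionine that supplies the aminopropyl groups to both synthases. It was at 22.4, 18.9 and 21.2 CPM against 17.8, 20.3 and 20.3 CPM, with overlapping groups and a log2 fold change of -0.10 ± 0.10 (SE; edgeR adjusted p = 0.481, 95% interval -0.32 to 0.12). Neither SMS nor AMD1 was called in any of 20 settings.

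The synthases SRM and SMS carry out the same kind of reaction, and their ratio within a library is free of the scaling between libraries. It is not free of trends with GC content, which is 63.7% for SRM and 46.5% for SMS. In each group the highest ratio was in the library whose deviations rose with GC content, control replicate 2 or knockdown replicate 1. No ratio corrected for GC content was computed. The log2 ratio of SRM to SMS counts was 3.67, 3.99 and 3.76 in controls and 3.31, 2.75 and 3.12 in the knockdown. The groups did not overlap, and the mean difference was -0.74 (exact 2-sided permutation p = 0.1, which is the least a 3 against 3 design can give, and 0.2 after adjustment over 4 ratios). Per length, SRM was 14.5 to 18.1 times SMS in controls and 7.67 to 11.3 times SMS in the knockdown, on the deposited RPKM (counts per kilobase of gene length at a common library total). SRM thus lost ground to SMS in each knockdown library, within the limits of a design that cannot reach 0.05.

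Antizyme control came next. AZIN1 (ENSG00000155096, chromosome 8) encodes antizyme inhibitor 1, an inactive relative of ornithine decarboxylase that binds antizyme in its place. It stood at 66.6, 60.8 and 66.2 CPM in controls and at 49.2, 51.5 and 47.5 CPM in the knockdown. All knockdown values were below all control values, with a log2 fold change of -0.38 ± 0.08 (SE; edgeR adjusted p = 0.00459). AZIN1 kept its call in all 20 settings, the closest being without FBL knockdown replicate 3 (-0.33, edgeR adjusted p = 0.0481). Its antisense transcript AZIN1-AS1 averaged 0.832 CPM, 1.46% of the level of AZIN1.

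OAZ2 (ENSG00000180304, chr15:64687573-64703281, minus strand) encodes antizyme 2. It was at 91.6, 98.1 and 91.2 CPM in controls and at 80.3, 78.3 and 76.4 CPM in the knockdown. Groups did not overlap and the log2 fold change was -0.26 ± 0.08 (SE; edgeR adjusted p = 0.0255). This call is less firm than that of AZIN1, since 7 of 20 settings lost it. Among these were upper-quartile scaling (-0.19, edgeR adjusted p = 0.0663) and the omission of control replicate 2 (0.0588), control replicate 3 (0.0721), knockdown replicate 2 (0.0767) or knockdown replicate 3 (0.165).

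OAZ1 (ENSG00000104904, chr19:2269509-2273490, plus strand) encodes antizyme 1, which binds ornithine decarboxylase and directs it to the proteasome. It was at 868, 1190 and 1030 CPM in controls and at 996, 864 and 909 CPM in the knockdown. The groups overlapped, and control replicate 2 held the highest value of this gene, whose GC content is 61.2%. The log2 fold change of -0.16 ± 0.12 (SE) was not called (edgeR adjusted p = 0.323, 95% interval -0.41 to 0.096), although it was after the GC correction (-0.17, edgeR adjusted p = 0.0339). Without control replicate 2 and knockdown replicate 1 the log2 fold change was -0.092, and without control replicate 2 alone -0.043, neither called (edgeR adjusted p = 0.532 and 0.779). JSRP1 overlaps OAZ1 on the other strand at an average of 226 CPM, and reads of the shared part cannot be assigned where the strand setting is not known.

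Ratios of the decarboxylase and of its inhibitor relative to antizyme 1 spread widely within groups. The log2 ratio of ODC1 to OAZ1 counts was -1.34, -1.99 and -1.68 in controls and -1.56, -1.20 and -1.37 in the knockdown, with overlapping groups (difference 0.30, 2-sided exact permutation test p = 0.3, adjusted 0.3). For AZIN1 to OAZ1 it was -3.71, -4.29 and -3.96 against -4.34, -4.07 and -4.26, again overlapping (difference -0.24, 2-sided exact permutation test p = 0.3, adjusted 0.3). Neither balance differed beyond the spread between libraries. Reads of JSRP1, which overlaps OAZ1, may be counted in both ratios. In the plot of ratios the control points of both pairs are spread more widely than the distance between the group means.

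**Figure D2:**
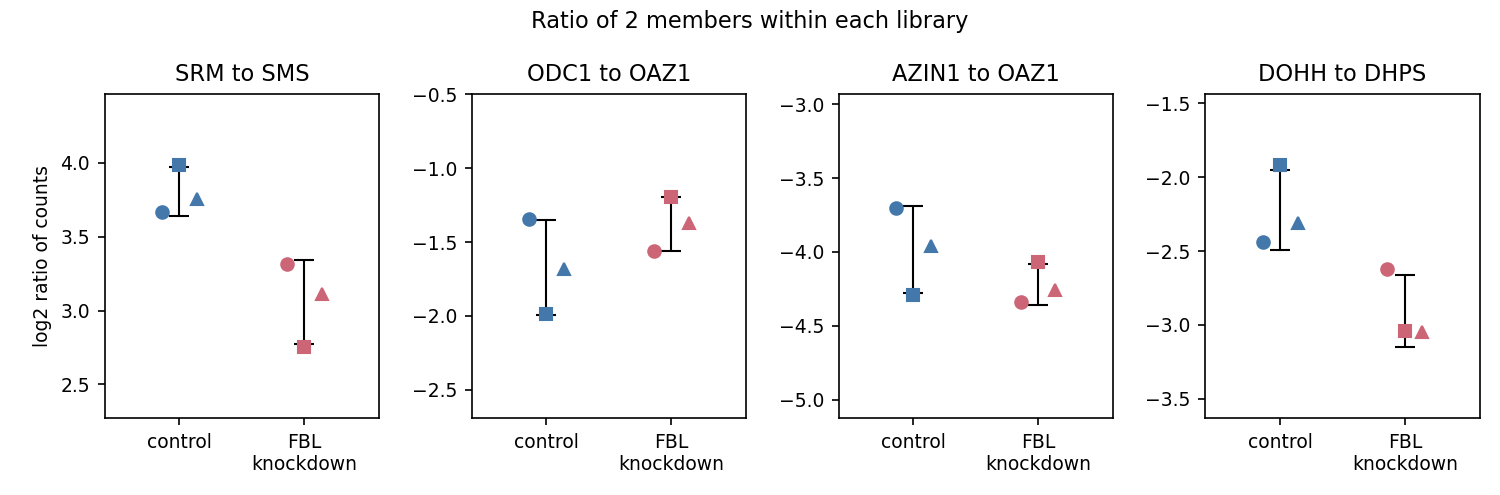
Log2 ratio of the counts of a pair of genes within each library (y axis, the same span in each panel), for control (blue) and FBL knockdown (red). Circles, squares and triangles are replicates 1, 2 and 3, and bars show the mean ± SD. The groups are apart for SRM to SMS and DOHH to DHPS and overlap for ODC1 to OAZ1 and AZIN1 to OAZ1.

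Breakdown is represented by SAT1 (ENSG00000130066, chrX:23783173-23786226, plus strand), the acetyltransferase that marks spermidine and spermine for oxidation or export and that polyamines themselves induce. It was the least abundant member, with 171 to 392 reads in a library. Its values were 2.48, 1.75 and 1.98 CPM in controls and 3.56, 4.25 and 4.12 CPM in the knockdown. All knockdown libraries were higher than all controls, and the log2 fold change was 0.94 ± 0.15 (SE; edgeR adjusted p = 0.000888). The change held in the 19 settings in which SAT1 was tested, between 0.50 on log2(RPKM + 1), a scale that understates changes of low genes, and 1.08. The stricter filter on low counts left SAT1 out.

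The hypusine enzymes differed from each other. DOHH (ENSG00000129932, chr19:3490822-3500940, minus strand) encodes deoxyhypusine hydroxylase, the enzyme of the last step. It stood at 17.6, 28.1 and 20.6 CPM in controls and at 15.8, 10.5 and 11.1 CPM in the knockdown. The lowest control and the highest knockdown library were close, but groups did not overlap. The log2 fold change was -0.82 ± 0.19 (SE; edgeR adjusted p = 0.00668), with the largest SE of the 5 called members.

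DOHH has the highest GC content of the members, 67.5%. Control replicate 2 and knockdown replicate 1, whose deviations rose with GC content, were its highest libraries in their groups. Without both the log2 fold change was -0.81, and after the GC correction -0.87 (edgeR adjusted p = 5.11e-05 and 1.23e-05). As for SRM, the smaller p-values are no added support, since calls over all genes rose in both settings. The call was lost in 1 of 20 settings, without FBL knockdown replicate 3 (-0.71, edgeR adjusted p = 0.0532).

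DHPS (ENSG00000095059, chr19:12675717-12681902, minus strand) encodes deoxyhypusine synthase, which moves the aminobutyl group of spermidine to eIF5A. It was at 95.3, 106 and 102 CPM in controls and 97.5, 87.0 and 92.0 CPM in the knockdown, with overlapping groups. Its log2 fold change of -0.14 ± 0.08 (SE) was not called (edgeR adjusted p = 0.239, 95% interval -0.32 to 0.048), nor was it in any of 20 settings. WDR83 overlaps DHPS on the other strand at an average of 72.3 CPM, so part of these reads is uncertain.

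The log2 ratio of DOHH to DHPS counts was -2.44, -1.92 and -2.31 in controls and -2.62, -3.04 and -3.05 in the knockdown. These groups did not overlap (difference -0.68, exact 2-sided permutation p = 0.1, again the least possible, and 0.2 after adjustment over 4 ratios). By this measure DOHH was lower relative to the synthase that precedes it in each knockdown library. The 2 genes differ in GC content (67.5% and 57.7%). As for SRM to SMS, the highest ratio of each group was in control replicate 2 and knockdown replicate 1. This ratio was not corrected for GC content, and reads of WDR83, which overlaps DHPS, may be counted in it.

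Per length, the members spanned a wide range of levels on the deposited RPKM. In controls OAZ1 (300 ± 48.1 RPKM, SD, n = 3) and SRM (277 ± 36.4) came first and overlapped, followed by ODC1 (108 ± 6.7), DHPS (33.8 ± 1.95) and SMS (17.3 ± 0.33). OAZ2, DOHH and AZIN1 lay between 8.64 and 13.9 RPKM with overlapping neighbours, and AMD1 (2.97 ± 0.25) and SAT1 (0.829 ± 0.146) were lowest. In the knockdown SRM (142 ± 26.5 RPKM) no longer overlapped OAZ1 (268 ± 23.4) but overlapped ODC1 (119 ± 5.5), and DOHH (6.16 ± 1.52) stood below AZIN1 (7.67 ± 0.31), again overlapping it. RPKM rests on the gene lengths of the deposited table, 7027 bases for AMD1 and 3436 for OAZ1, and understates a gene whose main transcript is shorter.

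A wider list of 34 genes around these steps was then examined, of which 31 had enough reads. Of these 10 were called lower and 4 higher, with a median log2 fold change of -0.11, against 17.0% lower, 15.8% higher and -0.0061 over all tested genes. Without FBL knockdown replicate 3 the lower count was 5, in a fit that called 1835 of 18755 tested genes lower.

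In 1 role of the wider list, methionine and S-adenosylmethionine supply, all measured genes were called lower. This was 4 of 4, against 17.0% of all tested genes, in a list chosen with earlier results of these data known. MAT2A (-0.66 ± 0.09, log2 fold change ± SE) and MAT2B (-0.34 ± 0.08) encode the catalytic and regulatory subunits of the methionine adenosyltransferase of most tissues. MAT2A went from 79.0 ± 7.2 to 50.1 ± 2.0 CPM (SD, n = 3 each). AHCY (-0.43 ± 0.09), which breaks down S-adenosylhomocysteine, went from 682 ± 39.1 to 505 ± 30.9 CPM. The liver form MAT1A (-1.11 ± 0.16) was at or under 1.57 CPM in every library. The adjusted p of edgeR's test ran from 0.000377 for MAT2A to 0.0100 for MAT2B, which lost its call in 2 of 20 settings.

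Among genes of ornithine supply 1 of 4 tested was called, against 32.8% of all tested genes. ALDH18A1, which makes the precursor of proline and ornithine from glutamate, had the largest fall of the wider list, from 164 ± 17.5 to 73.2 ± 2.0 CPM (SD, n = 3 each). Its log2 fold change was -1.16 ± 0.09 (SE; edgeR adjusted p = 2.45e-05). The arginase ARG2 was not called, with a log2 fold change of 0.25 ± 0.10 (SE; edgeR adjusted p = 0.0715), and ARG1 had too few reads to be tested.

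In the salvage of methylthioadenosine, the by-product of both aminopropyl transfers, 2 of 6 genes were called lower, against 17.0% of all tested genes. GOT1 (-0.37 ± 0.09, log2 fold change ± SE), a transaminase, had an edgeR adjusted p of 0.00858 and lost its call in 1 of 20 settings. MTAP (-0.49 ± 0.17), the phosphorylase that opens the pathway, was at 3.40, 2.61 and 3.34 CPM in controls and 1.71, 2.44 and 2.53 CPM in the knockdown. Its call (edgeR adjusted p = 0.0493) was lost in 13 of 19 settings, so it is not firm. MRI1, APIP, ENOPH1 and ADI1 were not called.

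The spermine oxidase SMOX, which converts spermine back to spermidine, was higher, as SAT1 was. It stood at 4.07, 5.43 and 4.58 CPM in controls and at 10.2, 6.90 and 8.01 CPM in the knockdown. Groups did not overlap, and the log2 fold change was 0.84 ± 0.16 (SE; edgeR adjusted p = 0.00245), a call that held in all 20 settings. SMOX has 61.0% GC, and its highest libraries in their groups were control replicate 2 and knockdown replicate 1. The log2 fold change was 0.67 without knockdown replicate 1, 0.79 without both libraries and 0.82 after the GC correction. The acetylpolyamine oxidase PAOX was at most 0.358 CPM in any library and was not called (log2 fold change -0.66 ± 0.31, edgeR adjusted p = 0.121).

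Of the other antizyme genes AZIN2, a second antizyme inhibitor, was higher at 1.06 ± 0.25 (log2 fold change ± SE; edgeR adjusted p = 0.0084), but at a level of 0.283 ± 0.086 to 0.594 ± 0.075 CPM (SD, n = 3 each). AZIN1 was thus lower and AZIN2 higher, with AZIN2 far below AZIN1 in level. In transport SLC3A2 (-0.41 ± 0.08, edgeR adjusted p = 0.00231), a subunit shared by amino acid exchangers, was lower. ATP13A3 (0.42 ± 0.15, edgeR adjusted p = 0.0464), a transport ATPase of polyamines, was higher but lost its call in 8 of 20 settings.

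EIF5A, the acceptor of hypusine, was at 605, 665 and 645 CPM in controls and at 538, 488 and 505 CPM in the knockdown. All knockdown values were below all controls, with a log2 fold change of -0.32 ± 0.08 (SE; edgeR adjusted p = 0.0117), and 4 of 20 settings lost the call. The near-identical EIF5AL1 (128 CPM on average) and EIF5AP4 (54.3 CPM) can share reads with EIF5A, and GPS2 overlaps it on the other strand, so this value is uncertain. EIF5A2 was not called (0.25 ± 0.12, edgeR adjusted p = 0.137).

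MYC, a known activator of ODC1 and SRM, was at 266, 312 and 259 CPM in controls and 233, 240 and 222 CPM in the knockdown. Its log2 fold change of -0.27 ± 0.09 (SE; edgeR adjusted p = 0.0426) was lost in 14 of 20 settings. MYCN rose by 1.42 ± 0.27 (log2 fold change ± SE; edgeR adjusted p = 0.00259) at a level of at most 0.607 CPM. MAX and LIN28B were not called.

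**Figure D3:**
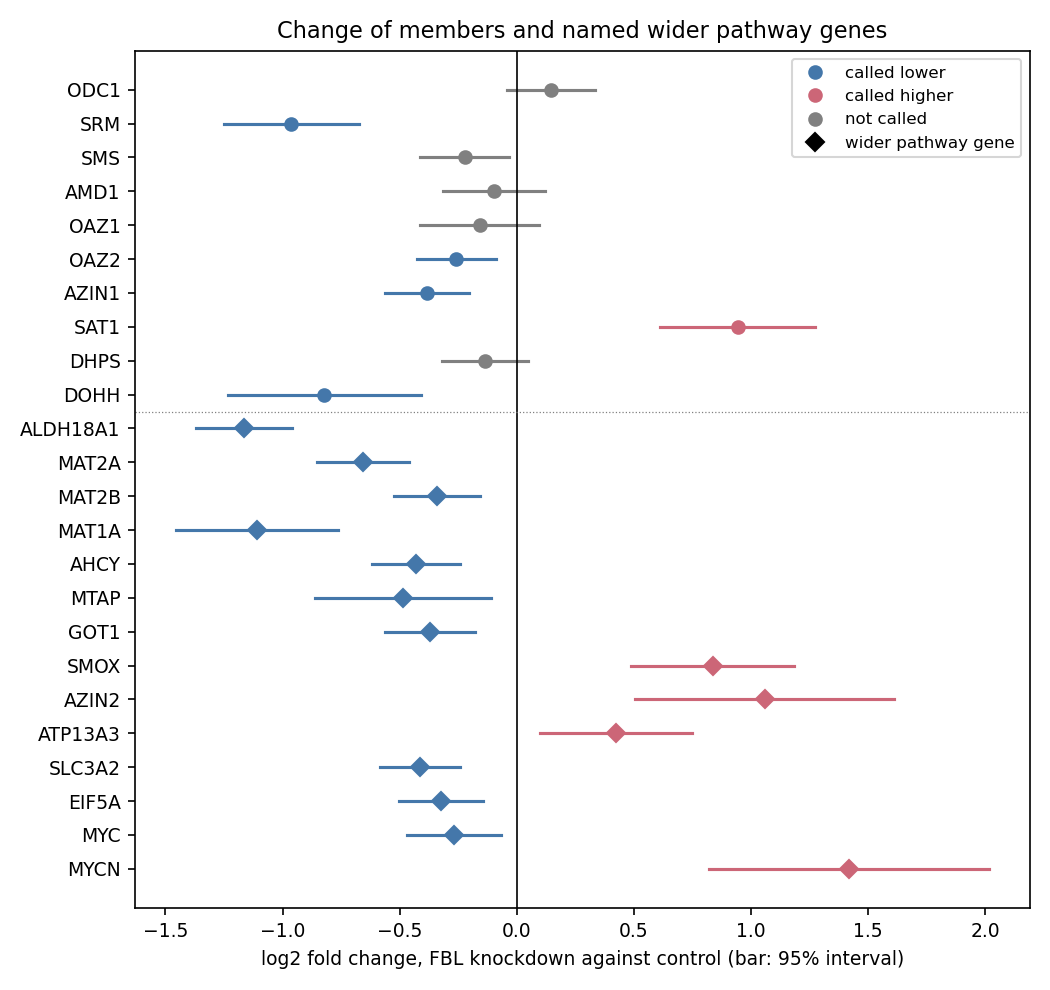
Log2 fold change of FBL knockdown against control (x axis) with its 95% interval, not adjusted for the number of genes, for the 10 members (circles, above the dotted line) and 14 wider pathway genes (diamonds). SRM and DOHH lie furthest left among the members and SAT1 furthest right, while ODC1, AMD1, OAZ1 and DHPS have intervals that include 0.

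The plot of the 10 members across settings shows which of these values depend on the analysis. SRM, SAT1 and AZIN1 kept their calls wherever they were tested, and no member changed direction in any setting. OAZ2 moved between called and not called at nearly the same size of change, from -0.28 to -0.19.

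**Figure D4:**
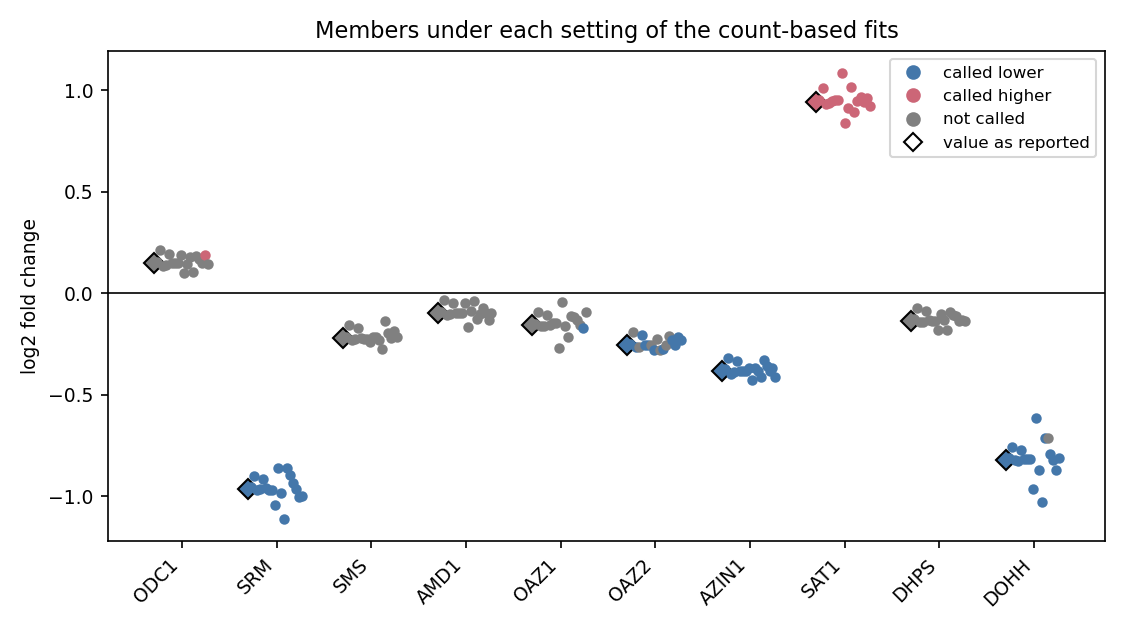
Log2 fold change (y axis) of each member in the reported fit (diamonds) and in the alternative fits of the counts (dots), coloured by whether edgeR, DESeq2 or limma called the gene lower (blue), higher (red) or neither (grey). SRM spans -1.11 to -0.86 and is called throughout, whereas OAZ2 and 1 setting of DOHH turn grey.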

How the data were processed

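The authors deposited whole-number counts per Ensembl gene with gene lengths, and a second table of RPKM values. Per the submitters' processing notes the build was GRCh38, and the tools listed, without order or settings, were HISAT2, cutadapt 1.18, edgeR and featureCounts. Which annotation release and strand setting were used, and how multi-mapping reads were treated, is not given in the sources used here. Each of the 191796 deposited RPKM values was recovered, to a tolerance of 1e-06, from the count, the gene length and the TMM-scaled library total (TMM, edgeR's trimmed mean normalization).

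Counts were analysed in R 4.3.3 with edgeR 4.0.16 (filterByExpr, minimum count 10 and minimum total 15, leaving 18486 of 31966 genes; TMM; glmQLFit and glmQLFTest on group alone; Benjamini-Hochberg adjustment over all tested genes; threshold 0.05). Standard errors came from the quasi-likelihood F statistic. Alternatives used limma 3.58.1, DESeq2 1.42.0, other scalings and filters, a replicate block and the omission of libraries. The stricter filter asked for 1 CPM in 3 libraries and a mean of 5 CPM. 3 alternatives were chosen after seeing the data: the legacy dispersion, the GC correction and the joint omission of 2 libraries. For the GC correction, deviations of log2 CPM from the mean of all 6 libraries were taken. The trend of each library's deviations on transcript GC was removed as an offset. Any difference between the groups that follows GC content is thus removed as well. The code was tested on simulated data.

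The 10 members and the wider list were chosen with earlier results of these data known. Named were FBL, all members, EIF5A, MYC and up to 12 called genes of the wider list with the largest change; some genes that were not called are named for completeness, and were chosen after their values were seen. Positions and transcripts are from GENCODE v29, promoters from RefSeq (GRCh38.p14).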

Additional observations from a re-analysis of the deposited data

How the results depend on the processing

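The count of members called lower (4) was 3 to 5 in all alternatives except the omission of FBL knockdown replicate 3, and ranged from 2 (that omission) to 4 when 1 library was left out. The count called higher (1) was 0 with the stricter filter, which removed SAT1, and 2 after the GC correction, which added ODC1. Of the wider list, 10 genes were called lower, 5 (without FBL knockdown replicate 3) to 10 with 1 library left out and 6 with the replicate block, and 4 were called higher, or 7 after the GC correction, under which the calls over all genes also grew, from 6061 to 8470. All called genes numbered 3833 with the replicate block and 3923 (without FBL knockdown replicate 2) to 6943 (without control replicate 2) with 1 library left out, and 4017 without FBL knockdown replicate 3. No result reversed in any alternative. With control replicate 2 and FBL knockdown replicate 1 both left out, all called genes numbered 7424. Fewer samples or residual degrees of freedom enter the omission and block fits, and the cause of these shifts, in either direction, was not tested. The labels do not say whether same-numbered libraries were handled together. Their deviations from the group mean correlated at -0.284, -0.198 and 0.045. These values cannot settle whether the samples were paired, since each library's deviations also follow GC content. With the replicate block 3 members were called lower, OAZ2 being lost (edgeR adjusted p = 0.0928), and in the wider list MAT2B, MTAP, ATP13A3, EIF5A and MYC were lost. The differences of the 4 within-library ratios kept their direction under all omissions of 1 library. Depth limits SAT1, with 171 to 392 reads in a library, more than the other members.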
